A study of Mus musculus with 8 samples.

Results

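Dying cells are recognised by macrophages through phosphatidylserine on their surface, and the transcripts described here encode 10 proteins of that recognition step. They were taken as the rows of the array table whose only platform gene symbol was Mertk, Axl, Tyro3, Gas6, Pros1, Timd4, Stab1, Itgb5, Itgav or Mfge8, and each of the 10 had 1 such row, among 19938 genes measured in all. On build GRCm38.p6 Mertk, Tyro3 and Itgav lie on chromosome 2, Axl and Mfge8 on chromosome 7, Gas6 on chromosome 8, Timd4 on chromosome 11, Stab1 on chromosome 14, and Pros1 and Itgb5 on chromosome 16. Expression had been measured on Affymetrix arrays in peritoneal macrophages of wild-type C57/Bl6 mice, pooled from 10 animals, obtained by lavage and kept overnight in medium with fetal calf serum. The groups were cells given 1 µg/ml of HRG, a recombinant form of the plasma protein histidine-rich glycoprotein, for 6 h, untreated (basal) cells of 6 h, HRG-treated cells of 24 h and basal cells of 24 h, with 2 arrays in each and no other allele or agent named. The cells of all 8 samples are described as 1 pool treated in duplicate, the labels do not say how far the replicates were handled apart, and each p-value thus reflects no more than the variation among these arrays, part or all of which may be technical. Values are log2 expression values, differences are HRG minus basal or 24 h minus 6 h on that scale, each given ± its standard error in a limma fit over 8 arrays (2 per group). The words "rose" and "fell" are kept for a Benjamini-Hochberg adjusted p under 0.05 over all 19938 genes.

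Uptake of apoptotic cells, or efferocytosis, uses receptors that bind phosphatidylserine directly and receptors that see it through a soluble bridge. Tyro3, Axl and Mertk form the TAM family of receptor tyrosine kinases, whose ligands are the vitamin K-dependent proteins encoded by Gas6 and Pros1 (protein S). Mfge8 encodes lactadherin, which links phosphatidylserine to integrins that contain the αv subunit encoded by Itgav, with the β subunit encoded by Itgb5 as one partner. Timd4 (TIM-4) and Stab1 (stabilin-1) bind phosphatidylserine themselves. TIM-4 is also a marker of resident macrophages of the mouse peritoneum, and Mertk is known in macrophages both for uptake and for restraining inflammatory signals.

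The cells carried transcripts of the labelled type. Group means of the macrophage markers Adgre1, Csf1r, Itgam, Cd68, Lyz2 and Cd14 lay between 12.36 and 13.95, and those of Fcgr1, which rose with HRG at 24 h, between 10.15 and 11.27, with array medians between 7.18 and 7.29. The table holds no detection calls, so no marker of another cell type can be called absent. Markers of several cell types moved with HRG, beside 0.431% of all genes that rose and 0.818% that fell at 6 h. At 24 h these shares were 2.43% and 1.05%. At 6 h, 1 of 6 B cell markers, 1 of 6 T and NK cell markers and 2 of 6 dendritic cell markers fell, and of 6 large resident macrophage markers 1 rose and 1 fell. At 24 h, 3 of 6 B cell, 2 of 6 mast cell and 2 of 6 small peritoneal macrophage markers rose, and of 6 large resident macrophage markers, Timd4 among them, 2 rose and 1 fell. Neutrophil and eosinophil markers passed at neither time (0 of 7; 0 had an unadjusted p under 0.05 at 6 h and 1 at 24 h, limma). The mean level of the B cell list lay between 8.58 and 8.59 on the HRG arrays and between 8.96 and 9.0 on the basal arrays at 6 h, and between 8.68 and 8.95 on the HRG arrays and between 8.01 and 8.40 on the basal arrays at 24 h. For the mast cell list it lay between 9.83 and 9.90 with HRG and between 9.88 and 10.06 in basal cells at 6 h. At 24 h the mast cell list lay between 9.87 and 10.175 with HRG and between 9.38 and 9.68 in basal cells. Of 10 mesothelial and fibroblast markers, 0 passed with HRG at either time (0 with an unadjusted p under 0.05 at 6 h and 3 at 24 h, limma). In bulk RNA, fewer cells of a type and less RNA per cell cannot be told apart.

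**Figure D1:**
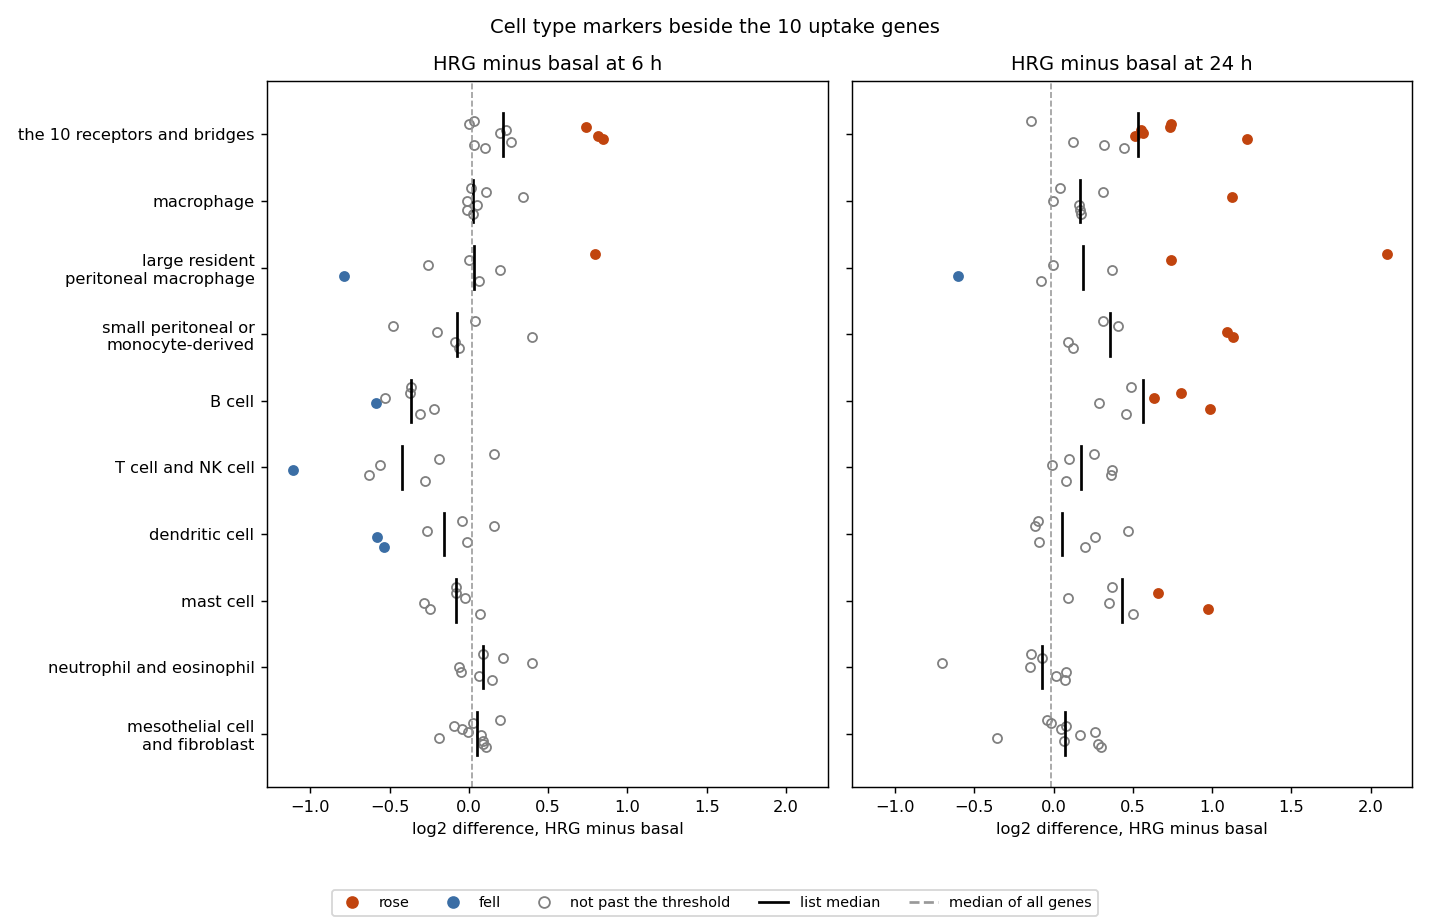
Log2 differences, HRG minus basal, of the 10 uptake genes and of 9 lists of cell type markers (Timd4 is in 2 of the rows), at 6 h (left) and 24 h (right). Each circle is a gene, filled where the adjusted p was under 0.05; the short black line is the list's median and the dashed line the median of all genes. The B cell circles lie below 0 at 6 h and above 0 at 24 h.

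Treatment for 6 h addressed which uptake genes HRG altered early. Mertk, Stab1 and Itgb5 rose, and the other 7 genes did not pass. Of the 10, 3 rose and 0 fell, against a background of 0.431% of all genes that rose and 0.818% that fell. The 10 genes were chosen with earlier results of these data known, so the shares here and below are description only. The median difference of the 10 was 0.21, beside 0.02 for all genes. Both HRG arrays lay above both basal arrays for 6 of the 10 genes, where 20.0% of all genes had that order, and below them for 0, against 18.3%.

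Itgb5, the β subunit of the αv integrin pair, gave 10.21 and 10.12 on the HRG arrays and 9.38 and 9.27 on the basal arrays at 6 h. The groups were far apart for their spread, and the transcript rose by 0.84 ± 0.10 (1.79-fold, adjusted p = 0.0035). Mertk gave 10.81 and 10.95 with HRG and 10.04 and 10.09 in basal cells. These 6 h HRG values overlapped those of untreated cells at 24 h (10.85 and 10.93). The rise was 0.81 ± 0.10 (1.76-fold, adjusted p = 0.0045). Stab1, a large scavenger receptor, gave 10.24 and 10.29 with HRG and 9.48 and 9.57 in basal cells, and rose by 0.74 ± 0.10 (1.67-fold, adjusted p = 0.0070).

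The remaining members were nearer to their controls at 6 h. Itgav, the αv chain, gave 12.03 and 12.04 with HRG and 11.81 and 11.73 in basal cells, without overlap, but the difference of 0.26 ± 0.093 did not pass (adjusted p = 0.28). Pros1, at 8.94 and 8.88 with HRG and 8.77 and 8.59 in basal cells, differed by 0.23 ± 0.13 (adjusted p = 0.56). Mfge8 gave 9.03 and 8.82 with HRG and 8.69 and 8.77 in basal cells, a difference of 0.19 ± 0.12 (adjusted p = 0.61). These 3 genes had both HRG arrays above both basal arrays and none passed. For Axl, Tyro3, Gas6 and Timd4 the groups overlapped. Timd4 differed by 0.0022 ± 0.11, with a 95% interval from -0.24 to 0.25, and the Axl interval ran from -0.22 to 0.42; changes within these intervals are not excluded. The calls of Mertk and Stab1 needed 1 array: without HRG 6 h replicate 2, Mertk stood at 0.74 (adjusted p = 0.071) and Stab1 at 0.72 (adjusted p = 0.091), and only Itgb5 (0.89, adjusted p = 0.0496) stayed under the threshold, in a fit that assumes the lone array varies like the other groups and in which the count of all genes that rose dropped from 86 to 10.

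**Figure D2:**
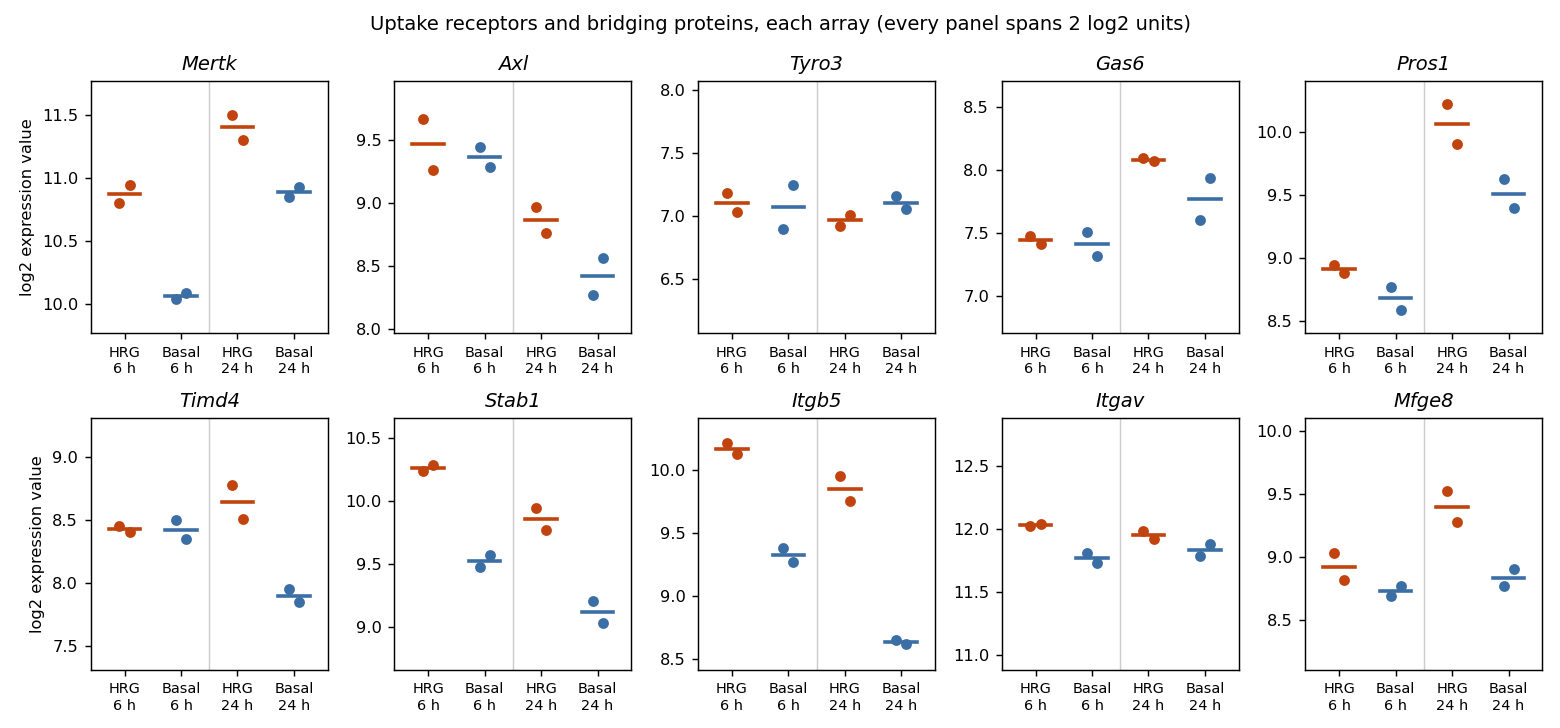
Log2 expression value of each of the 10 genes on each array, with HRG in orange and basal in blue, 6 h left of the grey line and 24 h right of it; points are arrays (2 per group) and bars are group means. Every panel spans the same log2 range, so distances can be compared between panels. HRG points lie above basal points at both times for Mertk, Stab1, Itgb5, Itgav, Pros1 and Mfge8, only at 24 h for Timd4, Axl and Gas6, and at neither for Tyro3.

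At 24 h more of the 10 genes passed. Mertk, Stab1 and Itgb5 rose again, and Timd4, Pros1 and Mfge8 rose with them. Of the 10 genes, 6 rose and 0 fell, against a background of 2.43% of all genes that rose and 1.05% that fell. The median difference was 0.53, beside -0.02 for all genes. Both HRG arrays lay above both basal arrays for 9 of the 10, where 19.1% of all genes had that order, and Tyro3 had the opposite order, as 21.1% of all genes did.

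Itgb5 had the largest difference of the 10 at 24 h. It gave 9.95 and 9.75 on the HRG arrays and 8.65 and 8.61 on the basal arrays, 1.22 ± 0.10 higher with HRG (2.33-fold, adjusted p = 6.5e-05). Timd4, the phosphatidylserine receptor of resident peritoneal macrophages, gave 8.78 and 8.51 with HRG and 7.95 and 7.85 in basal cells. The HRG arrays stayed near the levels of 6 h while the basal arrays lay below them, and the difference was 0.74 ± 0.11 (1.67-fold, adjusted p = 0.0031). Markers of B cells, mast cells and both kinds of peritoneal macrophage moved at the same time, by the counts given above, and their part in the result was not tested. Stab1 gave 9.95 and 9.77 with HRG and 9.21 and 9.04 in basal cells, and rose by 0.74 ± 0.10 (1.67-fold, adjusted p = 0.0021), as much as at 6 h. The interval of the difference between the Stab1 effects at the 2 times ran from -0.33 to 0.32.

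Mertk reached 11.50 and 11.30 with HRG, against 10.85 and 10.93 in basal cells, a rise of 0.51 ± 0.10 (1.43-fold, adjusted p = 0.016). The HRG values at 24 h were the highest of the series for this receptor. Its ligand Pros1 gave 10.22 and 9.91 with HRG and 9.63 and 9.39 in basal cells and rose by 0.55 ± 0.13 (1.47-fold, adjusted p = 0.032). The integrin bridge Mfge8 gave 9.52 and 9.27 with HRG and 8.77 and 8.90 in basal cells and rose by 0.56 ± 0.12 (1.48-fold, adjusted p = 0.017). In each of these 3 genes the lower HRG array was still above the higher basal array.

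Among members that did not pass at 24 h, Axl came closest. It gave 8.97 and 8.76 with HRG and 8.27 and 8.57 in basal cells (0.44 ± 0.15, adjusted p = 0.16, 95% interval 0.13 to 0.76). Gas6, the ligand that all TAM receptors share, gave 8.10 and 8.07 with HRG and 7.60 and 7.93 in basal cells (0.32 ± 0.12, adjusted p = 0.25). Itgav differed by 0.12 ± 0.093 (11.98 and 11.92 with HRG, 11.78 and 11.88 in basal cells, adjusted p = 0.73), so that of the integrin pair the β chain passed and the αv chain did not; the difference between the 2 chains was not tested. Tyro3 was the one member with a negative sign (6.92 and 7.0 with HRG, 7.15 and 7.05 in basal cells; -0.14 ± 0.12, adjusted p = 0.78). Single arrays decided several of the 24 h calls. Without HRG 24 h replicate 1, which was the higher HRG array for each of these 6 genes, Itgb5 (1.12) and Stab1 (0.65) passed, and the calls were lost for Timd4 (0.61, adjusted p = 0.059), Mertk (0.41, 0.22), Pros1 (0.40, 0.36) and Mfge8 (0.44, 0.24), while the count of all genes that rose dropped from 485 to 110. Mertk and Mfge8 also lost their calls without Basal 24 h replicate 1 (adjusted p = 0.087 and 0.10), and Mertk, Mfge8 and Pros1 without Basal 24 h replicate 2 (0.070, 0.059 and 0.27).

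**Figure D3:**
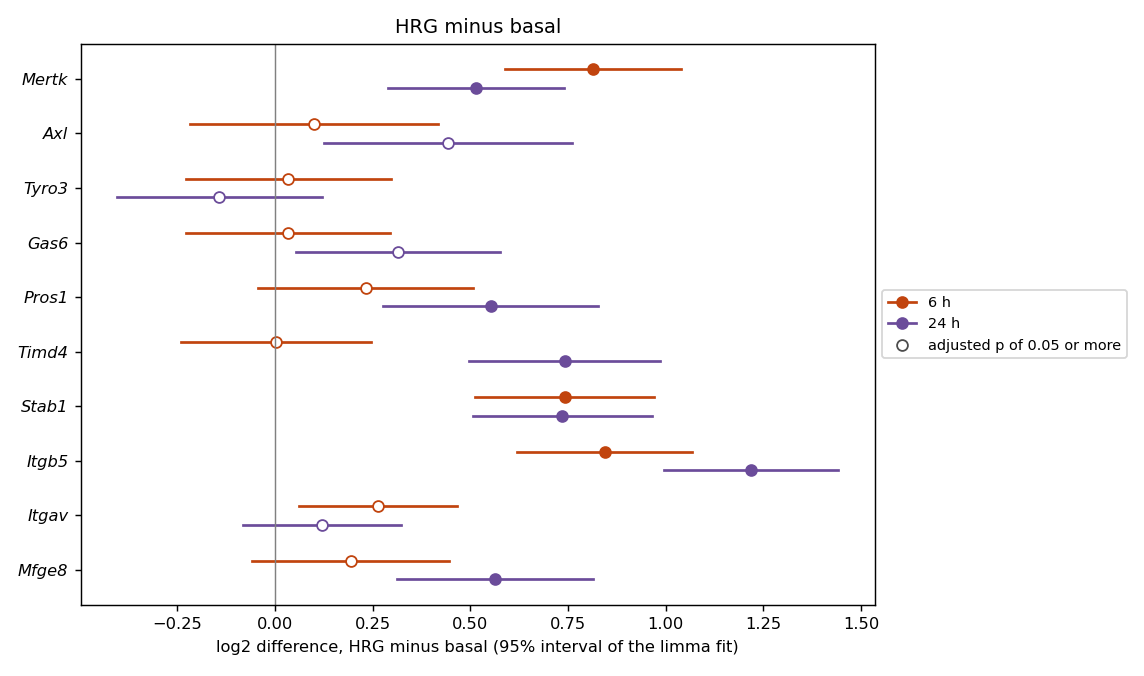
Log2 difference, HRG minus basal, of the 10 genes at 6 h (orange) and 24 h (purple) with the 95% interval of the limma fit (2 arrays per group); filled points had an adjusted p under 0.05. The intervals of Timd4 at the 2 times do not overlap, those of Stab1 nearly coincide, and those of Tyro3 include 0 at both times.

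The difference between the 24 h effect and the 6 h effect was tested directly. Timd4 was the 1 member past the threshold, at 0.74 ± 0.16 (adjusted p = 0.042), where 1.02% of all genes had a larger effect at 24 h and 0.451% a smaller one. Its HRG effect was 0.74 at 24 h and 0.0022 at 6 h. For the other 9 the test did not pass: Itgb5 (0.38 ± 0.14, adjusted p = 0.33) and Mfge8 (0.37 ± 0.16, adjusted p = 0.43) had larger effects at 24 h, and Mertk (-0.30 ± 0.15, adjusted p = 0.49) a smaller one. So Pros1 and Mfge8, which passed at 24 h and not at 6 h, are not shown to differ between the times (Pros1 0.32 ± 0.18, adjusted p = 0.58). Markers of other cells passed in the direction of Timd4: 5 of 6 for B cells, 2 of 6 each for small peritoneal macrophages, dendritic cells and large resident macrophages (Timd4 included), and 1 of 6 each for T and NK cells and for mast cells. Their part in the Timd4 result was not tested. The Timd4 call was lost without any 1 of 5 of the 8 arrays, with adjusted p between 0.11 without Basal 6 h replicate 1 and 0.21 without HRG 24 h replicate 1; the others were both HRG 6 h arrays (0.12 and 0.17) and Basal 24 h replicate 2 (0.14).

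Averaged over both times, HRG raised 6 of the 10 genes, against 1.90% of all genes, and lowered 0, against 1.23%. Itgb5 (1.03 ± 0.072, adjusted p = 4.1e-05), Stab1 (0.74 ± 0.074) and Mertk (0.66 ± 0.073) led, and Pros1, Mfge8 and Timd4 followed with mean effects between 0.37 and 0.39 (adjusted p between 0.025 and 0.035). For Timd4 the effect was 0.0022 at 6 h and 0.74 at 24 h, so its mean describes neither time. The calls of Itgb5, Stab1 and Mertk on this average held without each of the 8 arrays in turn. Those of Pros1 and Timd4 were lost without 5 arrays each and that of Mfge8 without 4, with adjusted p up to 0.17 for Pros1, 0.13 for Timd4 and 0.14 for Mfge8, each time highest without HRG 24 h replicate 1.

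Culture time was compared next. Between 24 h and 6 h in basal cells, Mertk and Pros1 rose and Axl, Itgb5, Timd4 and Stab1 fell: 2 of 10 rose and 4 fell, against backgrounds of 3.80% and 5.48% of all genes. The 24 h arrays lay wholly above those of 6 h for 3 genes and wholly below for 4, which 23.5% and 21.7% of all genes did. The TAM receptors went apart. Mertk was higher at 24 h by 0.83 ± 0.10 (10.85 and 10.93 at 24 h, 10.04 and 10.09 at 6 h, adjusted p = 0.00038), Axl was lower by 0.95 on the log2 scale (-0.95 ± 0.15, 8.27 and 8.57 at 24 h, 9.44 and 9.29 at 6 h, adjusted p = 0.0015), and Tyro3 differed by 0.04 ± 0.12 (adjusted p = 0.92). The mean Tyro3 level over the 8 arrays was 7.06, below every array median. Without detection calls, whether Tyro3 was expressed cannot be told. The Mertk ligand Pros1 rose by 0.83 ± 0.13 (1.78-fold, adjusted p = 0.0014), while Gas6 was 0.35 ± 0.12 higher without passing (adjusted p = 0.096). The Gas6 value depended on 1 array: it passed without Basal 24 h replicate 1 (0.52, adjusted p = 0.030) and was 0.19 (adjusted p = 0.49) without Basal 24 h replicate 2.

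The receptors that HRG raised most did not share one course in untreated cells. Itgb5 fell by 0.69 on the log2 scale (-0.69 ± 0.10, adjusted p = 0.0012), Timd4 changed by -0.52 ± 0.11 (adjusted p = 0.011) and Stab1 by -0.40 ± 0.10 (adjusted p = 0.032), whereas Mertk rose. Itgav and Mfge8 did not pass (0.06 ± 0.093 and 0.10 ± 0.12). For the Stab1 decline, renewed quantile normalization gave adjusted p = 0.052, a fit on the compared arrays alone gave 0.076, and leaving out any of 5 arrays gave 0.052 to 0.21, the last without Basal 24 h replicate 2. Timd4 lost its call without Basal 6 h replicate 1 (adjusted p = 0.076) or Basal 24 h replicate 2 (0.082). Beside the Timd4 decline, 5 of 6 B cell markers and 3 of 6 large resident macrophage markers, Timd4 itself among them, fell in basal cells, as did 3 of 6 small peritoneal macrophage, 3 of 6 dendritic cell and 2 of 6 mast cell markers, while 1 dendritic cell marker rose. The part of those cells in the result was not tested.

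With HRG present throughout, Pros1, Gas6, Mertk and Mfge8 rose between 6 h and 24 h and Axl and Stab1 fell, 4 and 2 of 10, where 4.41% and 2.87% of all genes did so. Arrays of 24 h lay wholly above those of 6 h for 5 genes and wholly below for 5, which 22.6% and 26.6% of all genes did. Pros1 had the largest change, 1.15 ± 0.13 (10.22 and 9.91 at 24 h, 8.94 and 8.88 at 6 h, 2.22-fold, adjusted p = 0.00021). Gas6 rose by 0.64 ± 0.12 (8.10 and 8.07 at 24 h, 7.48 and 7.41 at 6 h, adjusted p = 0.0067). Mertk rose by 0.52 ± 0.10 and Mfge8 by 0.47 ± 0.12, Axl changed by -0.60 ± 0.15 and Stab1 by -0.41 ± 0.10. Itgb5 at -0.32 ± 0.10 and Timd4 at 0.22 ± 0.11 did not pass (adjusted p = 0.091 and 0.34). Except for Pros1, each of these calls was lost without at least 1 of the HRG arrays: without HRG 24 h replicate 1, adjusted p was 0.10 for Mertk, 0.068 for Axl, 0.060 for Gas6, 0.065 for Stab1 and 0.24 for Mfge8; without HRG 6 h replicate 1, it was 0.11 for Mertk, 0.25 for Axl, 0.15 for Stab1 and 0.056 for Mfge8; without HRG 6 h replicate 2, 0.060 for Gas6, 0.20 for Stab1 and 0.23 for Mfge8; and without HRG 24 h replicate 2, 0.21 for Axl, 0.053 for Gas6 and 0.27 for Stab1. The basal and HRG time courses differ by the same quantity as the HRG effects at the 2 times, so Timd4 was again the 1 gene for which the courses differed past the threshold.

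**Figure D4:**
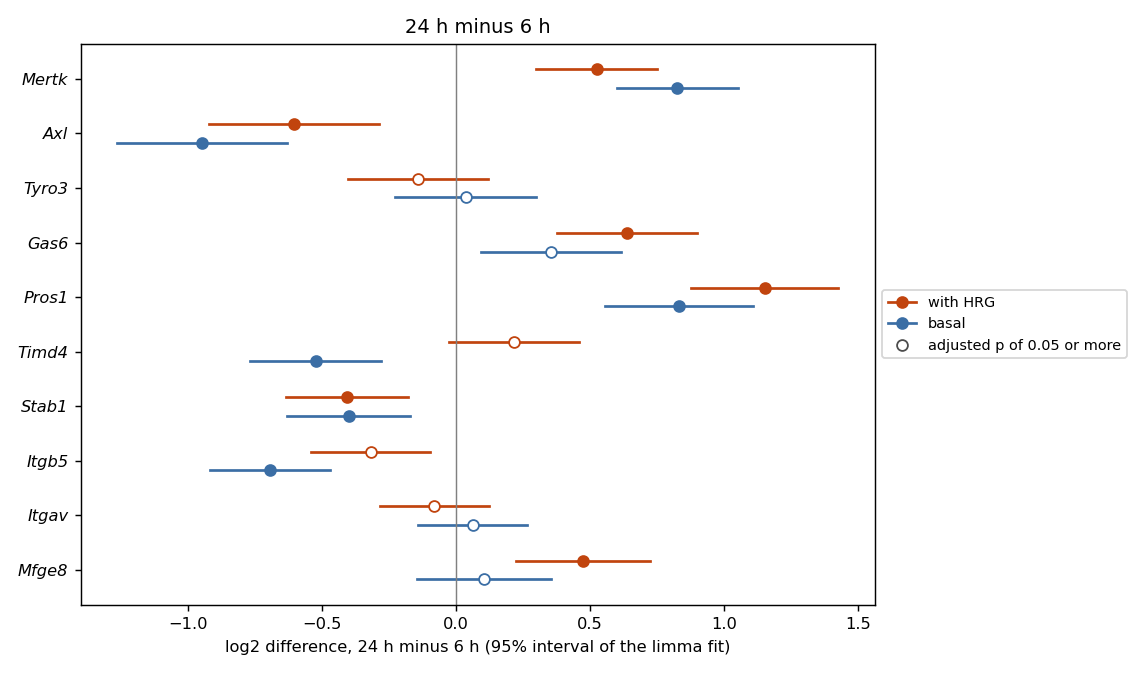
Log2 difference, 24 h minus 6 h, of the 10 genes in HRG-treated cells (orange) and basal cells (blue) with the 95% interval of the limma fit; filled points had an adjusted p under 0.05. Mertk and Pros1 lie right of 0 and Axl and Stab1 left of 0 under both conditions, and Timd4 lies left of 0 in basal cells.

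The 4 receptor genes that rose with HRG at 24 h are shown with the bases that precede their start. In basal cells Itgb5, Timd4 and Stab1 fell with culture time and Mertk rose. Whether these genes share a regulator was not tested. Promoter stretches were taken from RefSeq on build GRCm38.p6, which held 1 for each of the 10 genes, as the 250 bases before the start, 5′ to 3′ on the gene's own strand. Mertk lies on the plus strand (chr2:128698665-128698914), Itgb5 on the plus strand (chr16:33829415-33829664), Stab1 on the minus strand (chr14:31168642-31168891) and Timd4 on the plus strand (chr11:46810549-46810798). The gene bounds of Timd4 begin at 46810786 and those of Stab1 end at 31168651, inside their stretches. For these genes the start used here thus differs from the gene bounds. Capitals mark matches, on either strand, to any of 6 motifs: GAGGAA (the core that PU.1, the ETS factor of macrophages, binds), TGANTCA (AP-1), TGCTGA (a core letter run of MAF sites), TTGCNNAA (C/EBP), CACGTG (E-box) and GGGCGG (GC box).
Mertk: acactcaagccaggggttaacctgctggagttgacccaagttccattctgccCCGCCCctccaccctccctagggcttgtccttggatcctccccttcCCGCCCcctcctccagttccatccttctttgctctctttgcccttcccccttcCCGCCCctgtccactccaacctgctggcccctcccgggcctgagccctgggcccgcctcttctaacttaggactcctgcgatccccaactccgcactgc
Itgb5: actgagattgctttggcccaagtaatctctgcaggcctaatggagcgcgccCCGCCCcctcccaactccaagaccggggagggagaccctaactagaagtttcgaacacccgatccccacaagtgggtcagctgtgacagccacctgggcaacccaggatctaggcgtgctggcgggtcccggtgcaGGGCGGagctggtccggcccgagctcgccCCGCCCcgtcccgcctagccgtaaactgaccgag
Stab1: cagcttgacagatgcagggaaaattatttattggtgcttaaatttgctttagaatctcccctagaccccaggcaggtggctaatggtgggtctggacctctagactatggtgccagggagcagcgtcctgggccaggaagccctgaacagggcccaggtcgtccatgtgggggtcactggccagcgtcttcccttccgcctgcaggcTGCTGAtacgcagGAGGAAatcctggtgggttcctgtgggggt
Timd4: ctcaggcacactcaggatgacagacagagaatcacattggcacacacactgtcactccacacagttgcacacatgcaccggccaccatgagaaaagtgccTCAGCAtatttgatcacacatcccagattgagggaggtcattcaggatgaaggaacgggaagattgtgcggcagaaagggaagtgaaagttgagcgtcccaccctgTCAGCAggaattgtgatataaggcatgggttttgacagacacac
The Mertk stretch held GGGCGG 3 times, each on the opposite strand, and so did Itgb5, 1 on its own strand and 2 on the opposite one; 32.7% of all 32851 promoter stretches of that length held the motif. Stab1 held 1 TGCTGA, 43 to 38 bases before its start, and 1 GAGGAA, 30 to 25 bases before it, with no overlap between them. Timd4 held TGCTGA 2 times, 150 to 145 and 44 to 39 bases before its start, both on the opposite strand. Of all stretches, 16.1% held TGCTGA and 23.3% held GAGGAA. Among members not printed here, GGGCGG also lay before Axl, Tyro3 and Gas6, which did not pass with HRG, and before Pros1 and Mfge8. GAGGAA lay before Axl and Itgav, which did not pass with HRG, and before Mfge8. The Stab1 and Timd4 stretches held no GGGCGG, and GC content was 63.6% in Mertk, 65.2% in Itgb5, 57.2% in Stab1 and 50.0% in Timd4. A match says that the letters are there and no more.

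Other genes of the uptake pathway were read from 6 lists with 94 entries, 89 of them measured. Over all 6 lists, 1 gene rose (1.12%) and 2 fell (2.25%) with HRG at 6 h, against 0.431% and 0.818% of all genes, and 10 rose (11.2%) and 1 fell (1.12%) at 24 h, against 2.43% and 1.05%. The lists were chosen with earlier results of these data known. Among 18 further receptors for apoptotic cells, 1 rose at 6 h and 2 at 24 h, and 0 fell; their medians were 0.09 at both times. Cd300lb, an activating member of the CD300 family, rose at 6 h (8.67 and 8.66 with HRG, 8.19 and 7.94 in basal cells; 0.60 ± 0.12, adjusted p = 0.037). At 24 h Itgax, the integrin chain CD11c, rose by 1.00 ± 0.11 (7.90 and 7.81 with HRG, 6.96 and 6.76 in basal cells, adjusted p = 0.00039), and Cd300lf, a phosphatidylserine-binding receptor, by 0.80 ± 0.14 (adjusted p = 0.0081). The class B scavenger receptor Cd36 differed by -0.33 ± 0.11 at 24 h without passing (adjusted p = 0.17), and Itgb3, the other β partner of αv for lactadherin, by -0.30 ± 0.11 at 6 h (adjusted p = 0.32) and 0.11 ± 0.11 at 24 h (adjusted p = 0.84).

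Bridging molecules other than Gas6, Pros1 and Mfge8 numbered 14. At 6 h 0 passed, while 4 had an unadjusted p under 0.05 (limma); at 24 h 3 rose, and these were the C1q chains, which tag dying cells for uptake: C1qc by 2.36 ± 0.19, C1qa by 1.87 ± 0.16 and C1qb by 1.66 ± 0.13. The median of the 14 was 0.02 at 24 h, where 2.43% of all genes rose and 1.05% fell. Edil3, which like lactadherin joins phosphatidylserine to αv integrins, did not pass with HRG at 24 h (9.74 and 9.66 with HRG, 9.11 and 9.35 in basal cells; 0.47 ± 0.20, adjusted p = 0.35) but rose with culture time, by 1.81 ± 0.20 with HRG and 1.39 ± 0.20 in basal cells (adjusted p = 0.00022 and 0.0011).

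Of 22 measured genes of the engulfment and phagosome machinery, 0 passed with HRG at either time (limma; 2 and 3 had an unadjusted p under 0.05). With the shares of all genes given above, a list of this size is near the background at 0. The list had medians of -0.02 at 6 h and 0.02 at 24 h. Elmo1 and Dock1, which together activate Rac during engulfment, differed by -0.12 ± 0.097 and 0.22 ± 0.10 at 6 h and by -0.01 ± 0.097 and 0.13 ± 0.10 at 24 h. Dock1 rose with time, by 0.59 ± 0.10 with HRG (adjusted p = 0.0040) and 0.67 ± 0.10 in basal cells (adjusted p = 0.0013).

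Of 13 find-me and do-not-eat-me genes, 0 rose and 1 fell at 6 h, and 1 rose and 1 fell at 24 h. Of all genes, 0.431% rose and 0.818% fell at 6 h, and 2.43% rose and 1.05% fell at 24 h. Cd200, an inhibitory surface ligand, fell at 6 h (8.30 and 8.28 with HRG, 9.20 and 8.78 in basal cells; -0.70 ± 0.14, adjusted p = 0.038). At 24 h S1pr1, a receptor for the find-me lipid sphingosine phosphate, rose by 0.78 ± 0.13 (adjusted p = 0.0043), and Panx1, the channel that releases nucleotides from dying cells, fell (8.26 and 8.27 with HRG, 9.04 and 9.23 in basal cells; -0.87 ± 0.098, adjusted p = 0.00046). Cd47 and its receptor Sirpa, the main inhibitory pair, differed by 0.06 ± 0.091 and 0.04 ± 0.094 at 24 h. Some B cell markers fell at 6 h and rose at 24 h, by the counts given above. Their part in the Cd200 and S1pr1 results was not tested.

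Shares of all genes that rose and fell were 0.431% and 0.818% at 6 h and 2.43% and 1.05% at 24 h. Among 12 nuclear receptors and factors, 0 rose and 1 fell at 6 h, Klf4 (-0.57 ± 0.12, adjusted p = 0.044), and 3 rose and 0 fell at 24 h. Maf, a transcription factor of mature macrophages, rose by 1.17 ± 0.12 (11.16 and 10.82 with HRG, 9.74 and 9.91 in basal cells, adjusted p = 0.00025), Nr1h3, the sterol receptor LXRα, which is known to induce Mertk, by 0.52 ± 0.11 (adjusted p = 0.018) and Nr4a1 by 0.49 ± 0.091 (adjusted p = 0.010). Gata6, the factor that maintains resident peritoneal macrophages, differed by 0.37 ± 0.10 at 24 h without passing (adjusted p = 0.080). In the list of TAM sheddases, feedback and signalling, 0 of 10 passed at 6 h (limma; 1 had an unadjusted p under 0.05), and 1 rose at 24 h. That gene was Timp3, an inhibitor of the sheddase ADAM17 that cuts Mertk (7.66 and 7.82 with HRG, 6.46 and 6.65 in basal cells; 1.18 ± 0.11, adjusted p = 0.00018). Adam17 itself differed by 0.02 ± 0.096 (11.95 and 12.03 with HRG, 11.92 and 12.02 in basal cells). Ggcx and Vkorc1, enzymes of the vitamin K cycle on which Gas6 and protein S depend, differed by 0.04 ± 0.11 and 0.24 ± 0.13 and did not pass.

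**Figure D5:**
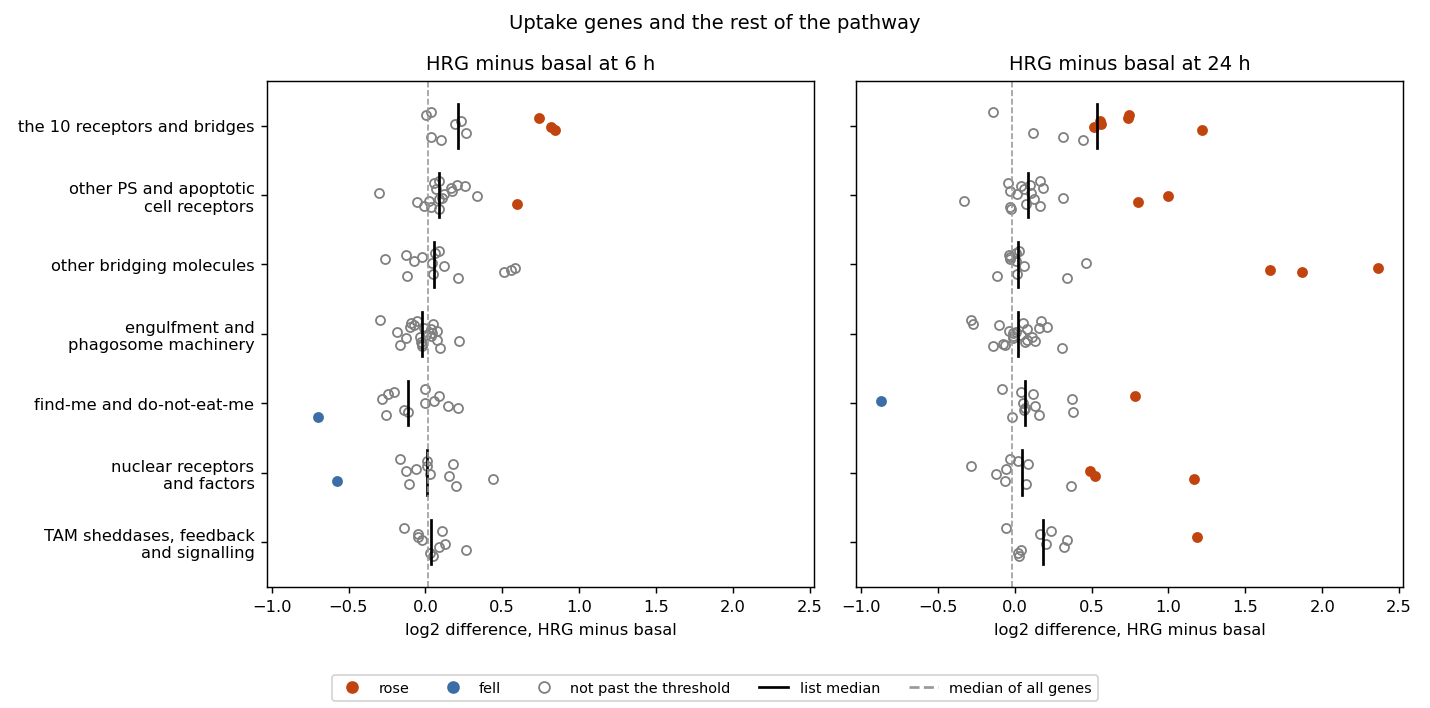
Log2 differences, HRG minus basal, of the 10 uptake genes and of 6 lists of other genes of the pathway, at 6 h (left) and 24 h (right). Each circle is a gene, filled where the adjusted p was under 0.05 (orange higher, blue lower); black lines are list medians and the dashed line is the median of all genes. At 24 h the 3 C1q chains stand furthest right, and the engulfment genes have no filled circle.

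For each of the 6 members past the threshold with HRG, the genes of most similar course were named by the root mean square difference between the centred log2 values of the 8 arrays, which is 0 for identical courses. Stab1 was closest to Carmil1 (0.086, against 0.43 for the spread of Stab1 itself), followed by Rxrg (0.14) and Tmeff1 (0.15). Itgb5, with a spread of 0.59, was closest to Nuak1 (0.13), Maf (0.17) and Carmil1 (0.18). Timd4, with a spread of 0.29, was closest to Tlr1 (0.076), Fmnl1 (0.079) and Hdc (0.084). Mertk had Nlrp1c-ps, Tifab and Pitpnc1 nearest (each at 0.14, own spread 0.48), Pros1 had Mki67 (0.11), Aldh1l1 (0.12) and Deptor (0.13, own spread 0.55), and Mfge8 had Ubald1 (0.057), B3galnt1 (0.063) and Acat1 (0.064, own spread 0.27). The ranking left out predicted genes (Gm or LOC and a number), clone names ending in Rik, microRNAs and antigen receptor segments. These are descriptions of 8 arrays from 1 pool of cells, and which cells carried the transcripts was not tested.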

How the data were processed

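Total RNA (250 ng per sample, per the labels' protocols) of 8 macrophage samples was profiled on Affymetrix arrays. The authors deposited log2 values made with RMA. That method removes background, equalises the distributions of probe values between arrays and combines the probes behind each row. Affymetrix Expression Console, RMA and limma are named, per the submitters' processing notes. In the deposited row values the arrays still differed, with lower quartiles from 5.85 to 6.00 and medians from 7.18 to 7.29. Versions and build: not given in the sources used here.

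Of 28853 rows, 21789 had 1 gene symbol, 1621 several and 5443 none. Rows with 1 symbol were kept, gene IDs were matched to RefSeq GRCm38.p6 (21698 matched, 0 symbols changed), and for 999 genes with several rows the brightest row by mean was used, leaving 19938 genes. Groups came from the sample titles. A limma 3.58.1 fit (R 4.3.3) with 1 coefficient per group over all 8 arrays (4 residual and 7.81 prior degrees of freedom) gave 6 contrasts. Tests were two-sided with Benjamini-Hochberg adjustment over 19938 genes. The fit was tested on simulated data. Noise there was drawn independently for each array, so variation shared between arrays was not covered. Within groups, replicate arrays correlated across rows at r between 0.996 and 0.998. The number of arrays limits precision. The 10 genes and all lists were chosen with earlier results of these data known. All 10 were described in each comparison; of the pathway lists, genes past the threshold with HRG and up to 4 others per list were named, and the 3 genes of nearest course were named for members past it.

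Alternatives were the replicate block, eBayes with trend and robust, quantile normalization again, median centring, dropping the dimmest 30% of genes, averaging rows, testing every row, the compared arrays alone, the lower quartile as covariate, and leaving out each array.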

Additional observations from a re-analysis of the deposited data

Results flagged for a closer look

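Among the 10 uptake genes and the 89 measured genes of the pathway lists, the HRG effect at 24 h differed from that at 6 h in 8, by the test of the difference itself (limma, adjusted p under 0.05). Of all genes, 1.02% had a larger and 0.451% a smaller effect at 24 h by this test. Of the uptake genes this was Timd4, at 0.74 ± 0.16 (HRG effects of 0.74 at 24 h and 0.0022 at 6 h, adjusted p = 0.042). Among the pathway lists the C1q chains had larger effects at 24 h, C1qc by 1.78 ± 0.27, C1qa by 1.36 ± 0.23 and C1qb by 1.10 ± 0.19 (adjusted p between 0.0082 and 0.016). Timp3 had a larger effect at 24 h by 1.23 ± 0.16 (adjusted p = 0.0046), Pecam1, of the find-me and do-not-eat-me list, by 0.65 ± 0.14 (adjusted p = 0.047) and Nr4a1 by 0.61 ± 0.13 (adjusted p = 0.039). Panx1 had a smaller, negative effect at 24 h, by -0.92 ± 0.14 (adjusted p = 0.0087). Pecam1 passed at neither time alone (-0.28 ± 0.10 at 6 h and 0.37 ± 0.10 at 24 h). Groups held 2 arrays each, too few to look for single arrays far from their group.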

How the results depend on the processing

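Under the alternatives that leave out no replicate of a comparison (renewed quantile normalization, median centring, the dimmest 30% dropped, rows averaged or tested singly, trend and robust, the lower quartile as covariate, the compared arrays alone), the number of the 10 genes that rose or fell with HRG or with time stayed within 1.5 times its reported value. Leaving out single arrays moved it: the number that rose with HRG ran from 1 to 3 at 6 h (3 reported), from 2 to 6 at 24 h (6) and from 3 to 6 for the average of both times (6), and the number with a larger effect at 24 h ran from 0 to 1 (1). With time, 2 to 3 rose (2) and 2 to 4 fell (4) in basal cells, and 1 to 4 rose (4) and 0 to 2 fell (2) with HRG. Signs turned only for differences that had not passed. Median centring gave -0.0081 for Timd4 at 6 h and 0.0036 for Stab1 in the difference of effects, and the quartile covariate gave -0.0356 for Tyro3 at 6 h, 0.0303 for Stab1 in the difference of effects and -0.0409 for Tyro3 with time in basal cells. Without single arrays, values at 6 h ran from -0.1008 to 0.3001 for Axl, -0.0641 to 0.1315 for Gas6, -0.0751 to 0.0794 for Timd4 and -0.1368 to 0.2057 for Tyro3. Stab1 ran from -0.0956 to 0.0846 in the difference of effects, and Tyro3 from -0.1359 to 0.2066 with time in basal cells and from -0.1392 to 0.032 over both times. The cause was not tested. Over all genes, the numbers that rose and fell with HRG at 6 h (86 and 163) ran from 10 and 11 without HRG 6 h replicate 2 to 228 with the covariate and 312 with trend and robust. At 24 h (485 and 209) they ran from 110 and 72 without HRG 24 h replicate 1 to 670 with trend and robust and 453 with the covariate. Larger and smaller effects at 24 h (204 and 90) ran from 28 and 28 without HRG 24 h replicate 1 to 392 with trend and robust and 215 with the covariate. The average over both times (378 and 246) ran from 176 and 109 without that array to 664 and 533 with the covariate. With time in basal cells (758 and 1093) the lowest were 373 without Basal 24 h replicate 2 and 600 without Basal 6 h replicate 1 and the highest 1149 with the covariate and 1390 with trend and robust; with HRG (880 and 572) the lowest were 390 and 139 without HRG 6 h replicate 1 and the highest 1261 and 1257 with the covariate. The fit on the compared arrays alone gives no value for the difference of effects or the average, which use all arrays. The replicate numbers are shared by the groups but are not stated to mark a batch, and they were not taken as pairs. Deviations of same-numbered arrays correlated at 0.27, 0.24 and 0.41 among HRG 6 h, Basal 6 h and HRG 24 h. With Basal 24 h these groups correlated at -0.28, -0.33 and -0.20. With the replicate block, 3 of the 10 genes rose with HRG at 6 h, 6 at 24 h and 6 on average, as without it. That block cannot take up a difference between arrays that has the opposite sign in 1 group. The decline of Itgb5 with time under HRG passed with trend and robust (adjusted p = 0.04985), renewed quantile normalization (0.037) and the covariate (0.022), the rise of Gas6 with time in basal cells with the covariate (0.43, 0.011), and the average HRG effect on Itgav with trend and robust (0.19, 0.034). Genes of the pathway and marker lists were not followed under these alternatives.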
